A study of Mus musculus with 50 samples.

Results

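Replication-dependent histone genes were followed in mouse motor neurons from their birth to old age, and in motor neurons made from embryonic stem cells. The members are genes whose symbol begins with Hist1h, Hist2h, Hist3h or Hist4h. Only 9 of the 55385 genes in the RNA files carry such a symbol there, because the files name most of the family by later symbols (H1f4, H2bc8, H4c14). The gene IDs were therefore joined to the GENCODE M21 annotation of mm10, which gave 70 members, the 9 among them; 55144 of the gene IDs had a symbol in that annotation. Counts for the 9 are given beside those of the 70, and each member is named by its Hist symbol, with the symbol of the files in parentheses at first mention. The 70 members comprise 6 genes of the linker histone H1, 20 of H2A, 19 of H2B, 12 of H3 and 13 of H4. The Hist1 cluster on chromosome 13 holds 56 of them, Hist2 on chromosome 3 holds 10, Hist3 on chromosome 11 holds 3 and Hist4 on chromosome 6 holds 1. Hist3h2bb-ps (H2bu1-ps), Hist1h2aj (H2ac14) and Hist1h2al are annotated as pseudogenes.

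RNA was sequenced from 28 libraries and open chromatin was profiled by ATAC-seq in 22 libraries, 2 of each group. The E10.5 cells were whole motor neurons sorted by FACS from embryos heterozygous for the Hb9-GFP transgene, with several embryos pooled (3 RNA libraries). The later ages, with 2 libraries at E13.5, 3 at P4, 2 at P13, 3 at P21, 3 at P56 and 2 in mice of 2 years, came from nuclei pulled down on beads (INTACT) from spinal cords of Chat-Cre; SUN1-GFP mice, with several animals of both sexes pooled per library. Chat-Cre marks every cholinergic neuron and not skeletal motor neurons alone. The study's methods describe the E13.5 and P4 nuclei as less pure, with some material from blood vessels. Nuclei for ATAC-seq were sorted by FACS instead. From E13.5 on, RNA came from brachial and lumbar cord, and ATAC-seq nuclei from thoracic cord as well. The cultured neurons came from 1 embryonic stem cell line with the same alleles: nuclei were taken from the differentiated bodies at DIV0 (2), and from neurons grown on cortical astrocytes with neurotrophic factors, and with an anti-mitotic drug during the first part of the culture, at DIV7 (2), at DIV28 (3) and at DIV28 after growth in the sodium channel blocker tetrodotoxin (TTX, 1 µM) throughout (3). DIV28 replicate 3 is titled DIV0 replicate 3 in the labels and was taken as DIV28, in accordance with the sample numbers of the study. RNA was made into libraries by a stranded total RNA method with ribosomal depletion, which does not select for poly(A) tails, and each library held between 2704682 and 21823500 expected counts (median 4292675). Nothing shows that replicates of a group differ in more than the pooled animals or the culture, so p-values measure the spread between these libraries.

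Replication-dependent histones package newly made DNA. Their genes have no introns in most cases, stand together in clusters and are transcribed during S phase, and their messenger RNAs end in a conserved stem-loop in place of a poly(A) tail, to which the stem-loop binding protein attaches. Core histones H2A, H2B, H3 and H4 form the nucleosome and H1 binds the linker DNA between nucleosomes. Neurons leave the cell cycle when they are born, and non-dividing cells renew their histones mainly from replacement genes elsewhere in the genome, which are polyadenylated and expressed outside S phase; some clustered histone genes are known to give polyadenylated transcripts in differentiated cells as well.

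The stem-loop is shown because it is the feature that sets these transcripts apart. The genome sequence (RefSeq, GRCm38.p6, the same assembly as mm10) was searched in the 150 bases after each annotated stop codon, on the gene's strand only, for GG, any 2 bases, CT, any 4 bases, AG, any 2 bases and CC with all 6 pairs of the stem intact. Of 67 members with an annotated stop codon, 65 (97.0%) held it, against 11 of 21685 other protein-coding genes (0.0507%). Sites lay 22 to 59 bases after the stop codon (median 31), and 8 versions of the 16 bases were found, of which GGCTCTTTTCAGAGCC was shared by 41 members. Below, capitals mark the 16 bases of the stem and loop, and the position covers those bases.
Hist1h1e (H1f4), chr13:23621782-23621797, minus strand: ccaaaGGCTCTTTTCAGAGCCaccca
Hist3h2a (H2aw), chr11:58955172-58955187, plus strand: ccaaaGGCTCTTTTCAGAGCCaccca
Hist2h3c2 (H3c15), chr3:96238485-96238500, minus strand: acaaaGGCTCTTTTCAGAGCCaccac
Hist1h4d (H4c4), chr13:23581950-23581965, plus strand: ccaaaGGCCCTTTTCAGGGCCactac
Hist2h4 (H4c14), chr3:96262939-96262954, minus strand: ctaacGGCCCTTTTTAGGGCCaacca
The 26 bases were identical in Hist1h1e and Hist3h2a, which, as described below, differed in how far they fell with age. The members in which the letters were not found in the window were Hist1h2an and Hist2h2be (H2bc21).

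The family is repetitive, which bears on every value of a single member. The annotated transcripts of the members were cut into all their runs of 75 bases, and the share of runs found in no other gene had a median of 55.96% over the members. It was under 50% in 32 members, 100% in 5 (Hist1h1a (H1f1), Hist1h1b (H1f5), Hist1h1t (H1f6), Hist2h2be and Hist2h4) and 0 in 5 (Hist2h2aa1 (H2ac18), Hist2h2aa2 (H2ac19), Hist2h2bb (H2bc18), Hist2h3b (H3c13) and Hist2h3c1 (H3c14)). RSEM divided reads that matched several genes among them, and strand was not used for counting, so reads of neighbouring genes that overlap on opposite strands cannot be told apart. Counts of members are therefore given also for the members with at least 50% unique runs. The sums over a type do not depend on how reads were divided within it. They do depend on reads shared with other types or with genes outside the family. Hist2h2bb shared no run with another member, so all its runs occur in other genes. Hist3h2a had 69.4% unique runs and shared at most 0.82% with any 1 member. Hist1h1e shared 22.7% of its runs with the H2B gene Hist1h2be (H2bc6).

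Histone transcripts filled nearly 1% of the counts of embryonic motor neurons and far less in adult ones. The members together took 0.965% of all counts at E10.5 (lowest library 0.782%, highest 1.23%) and 0.905% at E13.5 (0.848% and 0.962%). They took 0.0838% at P4, then 0.0237% at P13, 0.0107% at P21, 0.00818% at P56 and 0.00827% at 2 years. Normalised counts below are counts scaled by median-of-ratios size factors over all 28 libraries. Their sum over the members was 53772 ± 12100 (SD, n = 3) at E10.5, 46691 ± 8276 (n = 2) at E13.5, 3971 ± 578 (n = 3) at P4 and 1262 ± 411 (n = 2) at P13. It was 591 ± 96.8 (n = 3) at P21, 434 ± 54.0 (n = 3) at P56 and 430 ± 37.1 (n = 2) at 2 years. Every E13.5 library lay above every P4 library, and P56 and 2 years overlapped. The E13.5 mean was 11.8 times the P4 mean and 108 times the P56 mean, and the P4 mean was 3.15 times the P13 mean. In bulk samples, fewer cells of a type and less RNA per cell cannot be told apart.

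**Figure D1:**
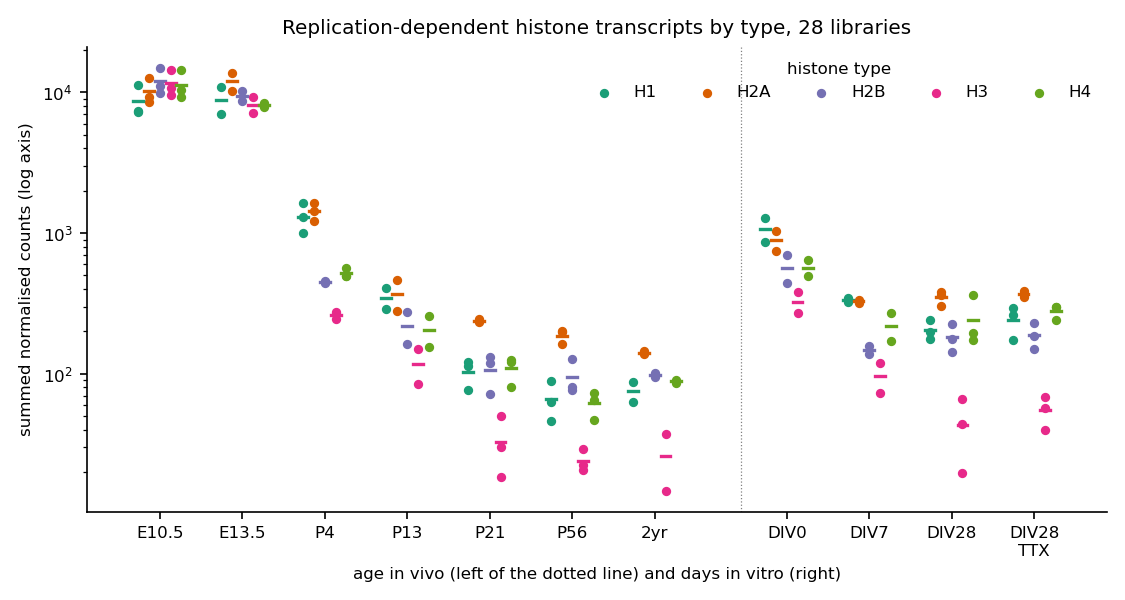
Summed normalised counts (log axis) of the members of each histone type in each of the 28 RNA libraries (points) with the group mean (bars), by age in vivo and days in vitro. All 5 types fell between E13.5 and P21, and H3 fell furthest, from a mean of 8187 at E13.5 to 24.2 at P56.

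All 5 types took part, to different extents. From E13.5 to P56 the mean sum fell 339-fold for H3, 135-fold for H1, 132-fold for H4, 99.5-fold for H2B and 64.1-fold for H2A. H3 went from 8187 ± 1551 (n = 2) to 24.2 ± 4.36 (n = 3), and H2A from 11999 ± 2546 to 187 ± 21.6. As a result of the unequal falls, H3 supplied 21.7% of the members' counts at E10.5 and 5.59% at P56, while H2A supplied 18.9% and 43.2%. H1 had its largest share at P4, 32.7% ± 3.21 (n = 3), against 15.97% at E10.5 and 15.4% at P56. Between clusters, Hist1 fell 169-fold, Hist2 67.7-fold, Hist4 35.7-fold and Hist3 5.49-fold from E13.5 to P56. No test was made of these sums.

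Levels of different types can be compared only per length, as TPM. The summed TPM of the members was 31168 at E10.5, 20164 at E13.5 and 88.8 at P56. At E13.5 the order was H2A (6804 TPM), H2B (4968), H4 (4672), H3 (2764) and H1 (956), and at P56 it was H2A (48.5 TPM), H2B (20.1), H4 (11.8), H3 (4.28) and H1 (4.09). The member highest in TPM was Hist1h4h (H4c8) at E10.5 (1358 TPM) and at E13.5 (2203 TPM), and Hist2h2aa1 at P56 (13.9 TPM). With 2 or 3 libraries per age, H3 and H1 at P56 (SD 1.11 and 1.01 TPM) did not differ beyond their spread.

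Each step between ages was tested per gene with edgeR's quasi-likelihood test over all 18 in vivo libraries, and a gene was called when p was under 0.001 without adjustment and the change was at least 2-fold. Of the 70 members, 64 passed the filter of 5 CPM (counts scaled to a fixed library size) in all replicates of an age. The 6 that did not were Hist1h1t, Hist1h2aa (H2ac1) and Hist1h2ba (H2bc1), which are known as testis histones, and Hist1h2aj, Hist2h3c1 and Hist2h2be. Hist1h2aa was at 0 in all 28 libraries, and Hist1h2ba held a count in 1 library only. Counts called below are given beside the share of all 15030 tested genes called the same way.

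From E10.5 to E13.5 the family moved unevenly. Of the 64 members, 24 were called lower and 5 higher (among all genes, 19.4% were called lower and 24.6% higher), with a median log2 change of -0.98 against 0.13 over all genes. H3 and H4 held most of the losses, with 7 of 11 and 6 of 13 members called lower and none higher in either. Hist1h3h (H3c10) had the largest fall of its type, from 759, 958 and 700 normalised counts at E10.5 to 44.7 and 26.7 at E13.5 (log2 change -4.70 ± 0.40 SE, edgeR adjusted p = 5.1e-08). Both E13.5 libraries lay far below the 3 E10.5 libraries. H2A went both ways, with 4 members called lower and 4 higher. Hist2h2ab (H2ac21), which encodes an H2A of the Hist2 cluster, rose from 35.5, 39.1 and 31.5 to 484 and 474 (3.61 ± 0.23, adjusted p = 4.7e-10). Hist1h1c (H1f2), the H1.2 linker histone, rose from 1305, 1992 and 1397 to 2985 and 5185 (1.24 ± 0.28, adjusted p = 0.00082), while Hist1h1a (H1.1) fell from 1515, 2235 and 1414 to 385 and 559 (-2.01 ± 0.23, adjusted p = 4.7e-07). Divided reads bear little on this pair, since 93.3% of the runs of Hist1h1c and all of Hist1h1a are unique. Only 6.53% of the runs of Hist1h3h and 37.6% of those of Hist2h2ab are, so their values depend on how reads were divided. The step from whole sorted cells to bead-purified nuclei falls between these ages, so age, mouse line and isolation cannot be told apart.

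Some calls of this step rest on how reads were divided. Hist2h2aa2 read 865, 1244 and 791 normalised counts at E10.5 but 2.26 and 0 at E13.5, while its twin Hist2h2aa1 read 1115, 1813 and 952 at E10.5 and 3738 and 4036 at E13.5. With the pair summed before the fit, the log2 change was 0.64 ± 0.23 and was not called, and that of the next step was -2.69 ± 0.23 and was called lower. Hist1h2ap fell and Hist1h2ao rose, but their sum changed by -0.32 ± 0.32 and was not called. The same division affects the only member called higher at P4 and the only member called higher at DIV0 below, which in both cases is Hist2h2aa2. Among the 34 tested members with at least 50% unique runs, 16 were called lower and 2 higher, and among the 9 named as Hist genes in the files, 3 lower and 2 higher.

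Between E13.5 and P4 almost the whole family fell. Of 64 members, 60 were called lower and 1 higher (19% and 23.8% of all genes), and the median log2 change of the members was -3.72, against 0.12 over all genes. All tested members of H1 (5), H2B (17), H3 (11) and H4 (13) were called lower, as were 14 of 18 of H2A. Hist2h3c2, which encodes H3, went from 2227 and 2628 normalised counts at E13.5 to 50.6, 53.5 and 33.3 at P4 (-5.57 ± 0.37, adjusted p = 3.3e-09). Hist1h4h, an H4 gene, went from 3609 and 3258 to 118, 101 and 103 (-4.84 ± 0.28, adjusted p = 5.4e-10). Hist1h2bm (H2bc14) went from 1089 and 1208 to 7.09, 21.4 and 32.9 (-5.68 ± 0.42, adjusted p = 9.8e-09). In each of these, every P4 library lay far below both E13.5 libraries. Only 37.4% of the runs of Hist2h3c2 are unique and 62.6% are shared with Hist2h3c1, so its values depend on how reads were divided. The linker gene Hist1h1e (H1.4) read 2097 and 2667 at E13.5 and 782, 626 and 504 at P4 (-1.75 ± 0.22, adjusted p = 2.3e-06), while Hist1h1c fell by 3.30 ± 0.30 on the log2 scale. The members not called lower were Hist1h2al, Hist1h2ap, Hist3h2a and Hist2h2aa2. Hist3h2a read 241 and 223 at E13.5 and 138, 92.0 and 116 at P4, a change of -0.86 ± 0.19 that missed the limit of 2-fold. With at least 50% unique runs, 32 of 34 members were called lower and none higher, and of the 9 named as Hist genes in the files, 7 of 9 were called lower.

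**Figure D2:**
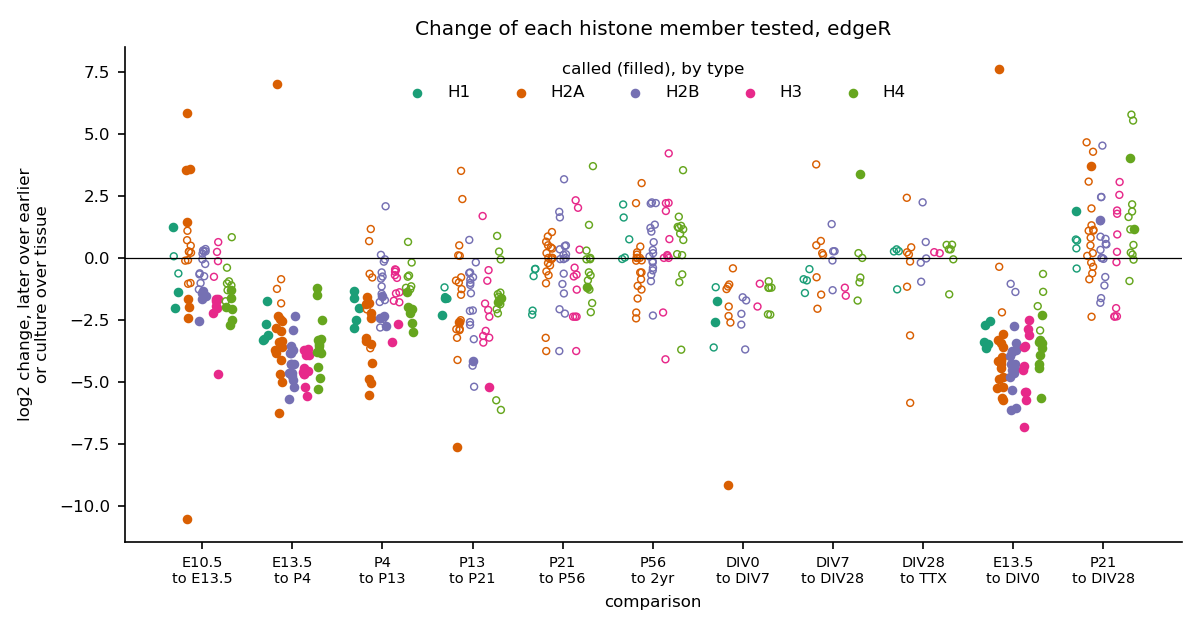
Log2 change (later over earlier, or culture over tissue, from edgeR) of each tested member in 11 comparisons, coloured by histone type, filled where called. In the step from E13.5 to P4, 60 of 64 points are filled below 0, and from P21 to 2 years 1 is; points beyond 7 on either side are members with divided reads or with no count in a group, whose fitted size is not a bound.

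Other cell types moved in the same step. A list of 8 erythroid genes summed to 16322 and 18148 normalised counts in the E13.5 libraries, to between 1138 and 1541 at P4 and to between 0 and 6.87 at E10.5. A list of 7 endothelial genes summed to 13903 and 26152 at E13.5, to between 5848 and 8030 at P4 and to between 8.40 and 33.2 at E10.5. The 8 pericyte and fibroblast genes summed to between 3970 and 5415 at E13.5 and to between 2802 and 4563 at P4. All members of the 3 lists held counts at E13.5. A list of 8 neural progenitor genes, all with counts at E10.5 and E13.5, summed to 6034 normalised counts on average at E10.5, 6702 at E13.5 (5221 and 8183), 1460 at P4 (between 1394 and 1590), 295 at P13, 102 at P56 and 1138 at DIV0. The astrocyte list (7 genes) had mean sums of 1060 at E13.5 and 3274 at P4, and the oligodendrocyte lineage list (7 genes) of 519 and 2155. By its sum the progenitor list was thus higher at E13.5 than at P4, like the histone members, and the 2 glial lists were lower. Single genes went both ways. From E13.5 to P4, 4 of 8 progenitor genes were called lower and 1 higher (19% and 23.8% of all genes). Of 7 astrocyte genes 1 was called lower and 4 higher, and of 7 oligodendrocyte lineage genes 2 and 4. From E10.5 to E13.5, 5 progenitor genes were called lower and 1 higher (19.4% and 24.6%). The part of these cell types in the fall of the histone genes was not tested. Of the motor neuron list, all 7 genes held counts in every age group, with sums between 1562 and 2912 at E13.5 and between 3326 and 4040 at P4.

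From P4 to P13 the decline went on in 29 of 64 members called lower and none higher (7.54% and 5.8% of all genes), with a median of -1.65 against 0.05. H1 and H2A led by count, with 5 of 5 and 12 of 18 members called lower, against 6 of 13 for H4, 4 of 17 for H2B and 2 of 11 for H3. Hist1h1e went from 782, 626 and 504 normalised counts to 132 and 168 (-2.005 ± 0.249, adjusted p = 1.3e-05). Hist1h1b (H1.5) went from 74.0, 52.4 and 34.9 to 5.66 and 9.28 (-2.83 ± 0.50, adjusted p = 0.00036), and Hist1h2af (H2ac10) from 88.6, 75.9 and 85.7 to 2.69 and 6.13 (-4.24 ± 0.50, adjusted p = 7.8e-06). For all 3, the libraries of the 2 ages did not overlap. Hist4h4 (H4f16), the single gene of the Hist4 cluster, went from 48.2, 46.9 and 44.9 to 9.78 and 8.36 (-2.24 ± 0.38, adjusted p = 0.00025). Without P13 replicate 1 only 9 members were called, and without each of the other 4 libraries of the step between 20 and 27. With only the P4 and P13 libraries in the fit, 30 members passed the filter and 18 were called lower. The rest of the 64 passed it through other ages, so their share called cannot be set against that of all genes. Of the members with at least 50% unique runs 16 of 34 were called lower, and of the 9 named as Hist genes in the files 4.

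From P13 to P21, 8 members were called lower and none higher (5.8% and 1.5% of all genes), with a median of -1.63, or -1.56 with 7 members without a count at P21 set to their bounds, against -0.07 over all genes. The linker genes Hist1h1c and Hist1h1e went from 111 and 172 to 22.4, 40.0 and 27.6 (-2.31 ± 0.37, adjusted p = 0.00028), and from 132 and 168 to 41.4, 52.6 and 60.7 (-1.62 ± 0.27, adjusted p = 0.00036). The H4 genes Hist1h4d and Hist1h4h had log2 changes of -1.76 ± 0.37 and -1.599 ± 0.396 (adjusted p = 0.0028 and 0.0081). Hist2h2ab fell by 2.57 ± 0.35 (adjusted p = 6.3e-05). Hist1h2ap held 21.2 normalised counts on average at P13 and none at P21, so it was at least 15.2-fold lower against a floor of 3 counts over the P21 group. Summed with its near copy Hist1h2ao, the change was -1.27 ± 0.60 and was not called. Hist1h2bb (H2bc3) and Hist1h3b (H3c2) were the other 2, with 10.45 and 27.51, and 15.5 and 26.4, at P13 and at most 1.40 and 2.04 in any P21 library. Without P13 replicate 2, 5 members were called. With only the P13 and P21 libraries in the fit, 9 members passed the filter and 3 were called lower. Most of the 64 thus passed it through other ages, so their share called cannot be set against that of all genes.

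After P21 few members passed the test, and many had too few counts to show a change. Of the 64 tested, 14 had no count in 1 or both groups from P21 to P56 and at most 3 in the other. From P56 to 2 years this held for 13. Many members passed the filter through earlier ages, so the lack of a call does not show a stable level. From P21 to P56, 1 member was called lower and none higher (0.126% and 0.0466% of all genes), and 6 members had an unadjusted p under 0.05. The member called was Hist2h4, which went from 42.0, 54.8 and 47.0 normalised counts to 17.9, 26.8 and 19.8 (-1.16 ± 0.29) with an adjusted p of 0.33, and leaving out any of the 3 P21 libraries, or P56 replicate 3, ended the call. From P56 to 2 years no member was called by edgeR in either direction (0.186% of all genes lower and 0.499% higher), 6 had an unadjusted p under 0.05, DESeq2 called 0, and without P56 replicate 1 the count was 1. The median of the members over the last step was 0.11, against 0.07 over all genes.

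**Figure D3:**
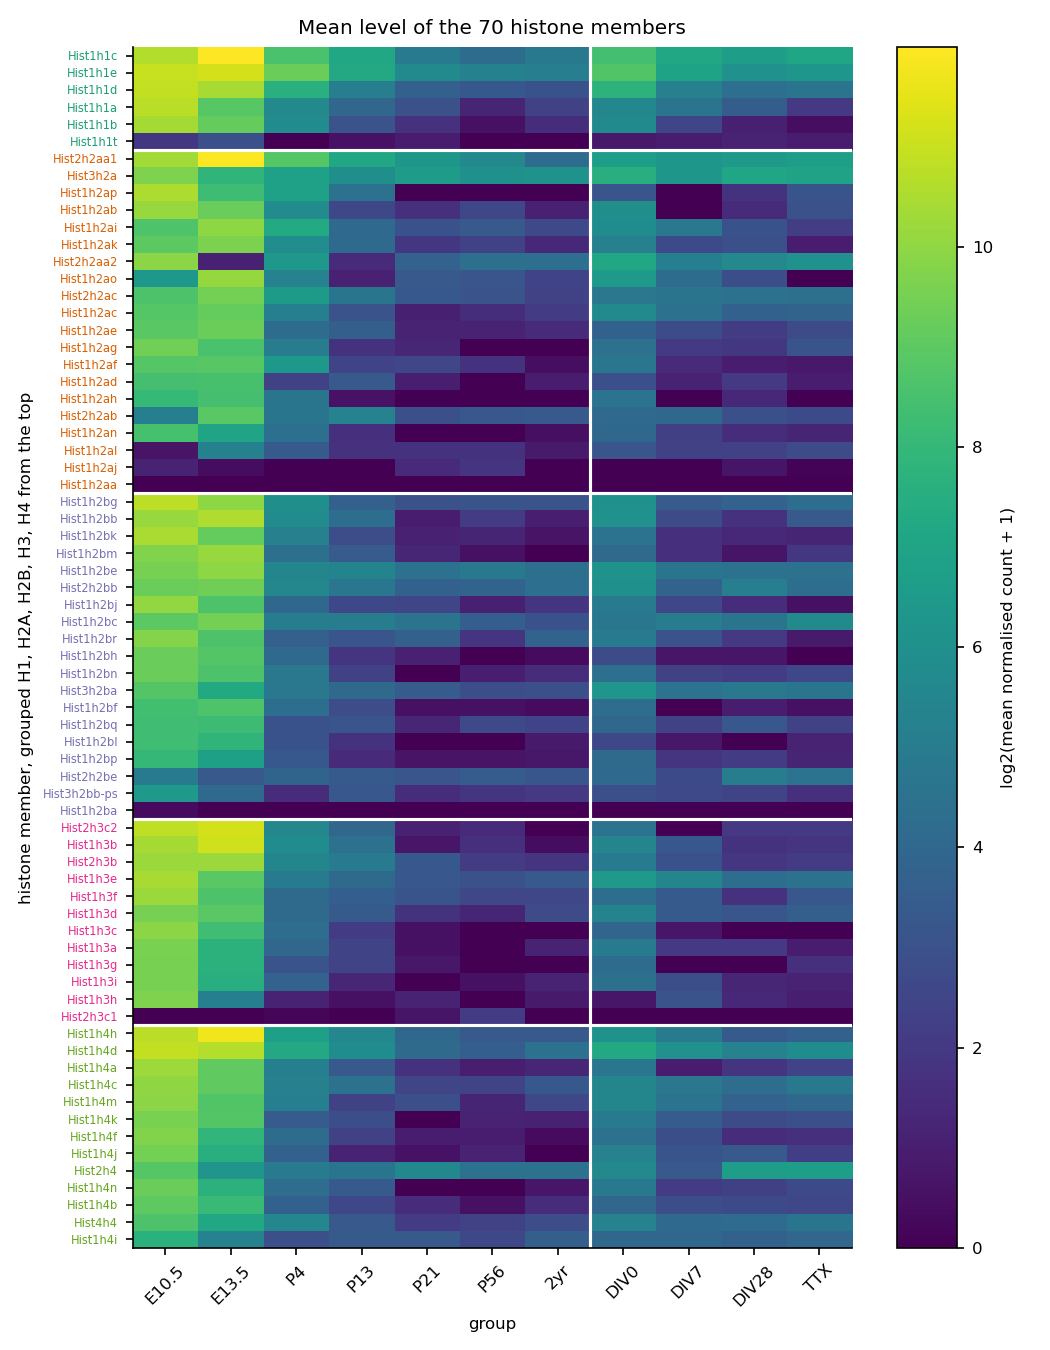
Mean level (log2 of the normalised count plus 1) of each of the 70 members in the 11 groups, by type from the top and by mean within type. Most rows are bright at E10.5 and E13.5 and dark from P21 on, with Hist3h2a, Hist2h2aa1 and Hist2h4 among those with reads left at P56.

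Between 37 and 44 members held a count in each P56 library. Described here are some that kept a larger share of their E13.5 level than the family's sum did. In them this share was larger than the share kept of the E10.5 level. Hist3h2a read 101, 97.4 and 85.8 normalised counts at P21, 61.2, 56.4 and 75.9 at P56 and 61.4 and 79.3 at 2 years, and its P56 mean was 27.8% of the E13.5 mean and 7.94% of the E10.5 mean. It was highest in the E10.5 libraries, at 720, 903 and 814, and none of its steps after P4 was called. Hist2h4 had a P56 mean at 28.2% of E13.5 and 4.68% of E10.5, after 336, 624 and 417 at E10.5, 68.3 and 84.1 at E13.5 and 24.7, 36.0 and 27.5 at P4. Hist1h4i (H4c9), another H4 gene, read 181, 231 and 187 at E10.5, 35.4 and 42.4 at E13.5, 6.88, 5.61 and 2.64 at P56 and 13.4 and 9.05 at 2 years, with a P56 mean at 2.53% of E10.5. Hist2h2be, the H2B gene in which no stem-loop letters were found, read 26.0, 39.4 and 20.6 at E10.5, 6.46 and 12.01 at E13.5 and 13.8, 8.04 and 9.24 at P56, so that E13.5 and P56 overlapped and E10.5 lay above both. By contrast, the E13.5 level of Hist2h3c2 left 0.702, 4.49 and 0 in the P56 libraries. Its reads are shared with Hist2h3c1, which had a mean of 0 at E13.5 and of 3.32 at P56, against 1.73 at P56 for Hist2h3c2. These members were singled out after their values were seen.

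**Figure D4:**
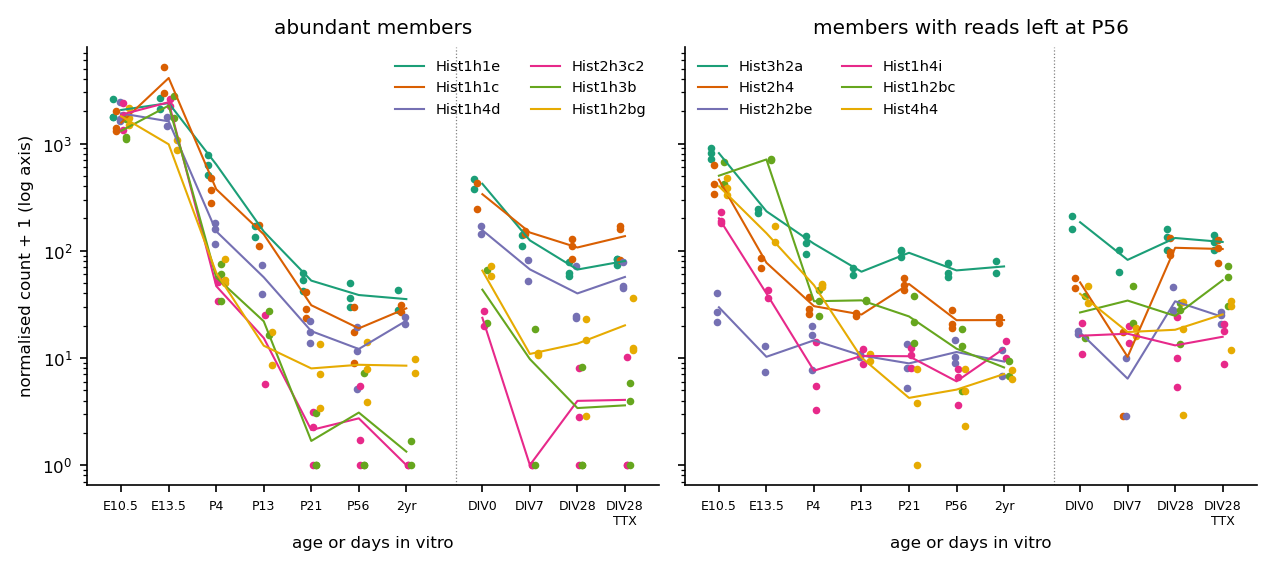
Normalised count plus 1 (log axis) per library (points) with the line through group means, for 6 abundant members (left) and 6 others with reads left at P56 (right), by age and days in vitro. Members on the left had reads at P56 too: Hist1h1e had a mean of 37.6 there, against 4.06 for Hist4h4 on the right. Hist3h2a stays between 56.4 and 101 from P21 to 2 years, whereas Hist2h3c2, which shares reads with Hist2h3c1, ends between 0 and 4.49.

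In culture, the members were already low at DIV0. The members summed to 2820 and 4021 normalised counts at DIV0, 1092 and 1163 at DIV7, between 893 and 1280 at DIV28 and between 1064 and 1255 at DIV28 with TTX. The E13.5 mean was 13.7 times the DIV0 mean, while the DIV0 mean was 3.03 times that of DIV7 and 3.34 times that of DIV28. In normalised counts DIV0 lay above all later cultures, and DIV7, DIV28 and TTX overlapped. The summed TPM gave 45.7 times for E13.5 over DIV0 and 1.56 times for DIV0 over DIV7. By that measure the cultures read 546 and 337 TPM at DIV0, 281 and 284 at DIV7, between 61.8 and 129 at DIV28 and between 74.8 and 141 with TTX, so that DIV7 lay above both groups of DIV28. In a fit of the 25 libraries without TTX, 55 of 64 members were lower and 1 higher at DIV0 than at E13.5 (24.3% and 15.1% of all genes), with a median of -3.79. Hist2h3c2 read 2227 and 2628 at E13.5 and 18.7 and 26.6 at DIV0 (-6.81 ± 0.60, adjusted p = 1.4e-08). The Hist3 and Hist4 genes were among the 8 not called, with Hist3h2a at 210 and 157 at DIV0 against 241 and 223 (-0.36 ± 0.25, adjusted p = 0.21) and Hist4h4 at -1.95 ± 0.58 (adjusted p = 0.0062). Tissue and culture differ in origin and in the lists above, since the erythroid, endothelial and pericyte lists each summed to at most 19.9 at DIV0, so system, age and purity cannot be told apart.

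Fewer members could be tested within culture. Only 25 of 70 passed the filter in the fit of the 10 in vitro libraries. From DIV0 to DIV7, 3 were called lower and none higher (2.81% and 8.36% of all genes), and all 25 had a negative change, with a median of -1.75 against 0.03. Hist1h1e went from 462 and 378 normalised counts to 109 and 138 (-1.75 ± 0.29, adjusted p = 0.0014), and Hist1h1d (H1.3, H1f3) from 256 and 176 to 39.8 and 32.2 (-2.60 ± 0.52, adjusted p = 0.0039). Hist1h2ab (H2ac4) held 64.52 and 60.99 at DIV0 and no count at DIV7, and was at least 27.6-fold lower against a floor of 3 counts over the group. Without DIV0 replicate 1, and without DIV7 replicate 1, no member was called, and none was called with DIV28 replicate 3 used as DIV0, as its title has it.

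From DIV7 to DIV28 no member was called lower and 1 higher (4.09% and 3.62% of all genes). This was Hist2h4. It read 54.9 and 44.3 at DIV0, 1.88 and 16.6 at DIV7 and 130, 96.9 and 89.7 at DIV28 (3.40 ± 0.58, adjusted p = 0.0031), so all 3 DIV28 libraries lay above all earlier cultures. With TTX it read 76.0, 106 and 126, which overlapped the untreated cultures. Growth in TTX changed no member by edgeR's test in either direction (0.403% of all genes lower and 0.279% higher), with 3 of 25 at an unadjusted p under 0.05, and DESeq2 called 1, Hist1h2ao. That gene read 13.49, 5.91 and 0 without TTX and 0 in all 3 libraries with it, and it is a member of a near-identical pair. The median of the 25 members with TTX was 0.23, against 0.01 over all genes. The main fit left out the pairing of the DIV28 and TTX replicates, and with a replicate block edgeR called 0 members.

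Whether the members stood higher at DIV28 than at P21 depended on the measure. In normalised counts the DIV28 mean sum was 1.73 times the P21 mean, but the summed TPM was 95.8 at DIV28 and 108 at P21, a ratio of 0.888, and the DIV28 libraries (61.8 to 129 TPM) overlapped those of P21 (98.5 to 121 TPM). Of 64 members, 5 were called higher at DIV28 and none lower (13.3% and 13.1% of all genes). With only the P21 and DIV28 libraries in the fit, 5 members passed the filter and 1 was called higher. Most of the 64 thus passed the filter through other groups, so their share called cannot be set against that of all genes. The median of the 64 was 0.72, or 0.56 with 7 members set to their bounds, against 0.03. Hist1h1c read 126, 109 and 83.3 at DIV28 and 22.4, 40.0 and 27.6 at P21 (1.88 ± 0.36, adjusted p = 0.00015), Hist2h4 differed by 1.18 ± 0.29 (adjusted p = 0.0019) and Hist2h2bb by 1.52 ± 0.34 (adjusted p = 0.00079). Hist1h2ac (H2ac6) and Hist1h4j (H4c11) were the others, at up to 1.70 and 1.45 in any P21 library and at least 9.23 and 5.56 in every DIV28 library. The count was 1 without P21 replicate 1, 2 without P21 replicate 2 and 3 without P21 replicate 3, and it was 1 with DIV28 replicate 3 used as DIV0.

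Genes of DNA replication and division fell in the same steps. A list of 20 S phase and mitosis genes summed to 18917 ± 6197 normalised counts at E10.5, 11451 ± 4322 at E13.5, 1722 ± 121 at P4, 522 at P13 and 352 at P56, and to 2903 ± 342 at DIV0 and 463 ± 30.8 at DIV7. From E13.5 to P4 16 of the 20 were called lower and none higher (19% and 23.8% of all genes), and from P4 to P13 10 and none (7.54% and 5.8%). Mki67, a protein of dividing cells, read 3610 ± 1623 at E13.5, 638 ± 62.3 at P4 and 54.1 ± 16.8 at P13, and 1634 ± 188 at DIV0 and 23.9 ± 8.59 at DIV7. Top2a, the topoisomerase that untangles replicated DNA, fell by 3.41 ± 0.28 on the log2 scale from E13.5 to P4 (adjusted p = 1.5e-08). The E13.5 libraries differ widely on this list, at 8395 and 14506. How much of the histone signal came from dividing cells was not tested.

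Some factors that make or process histone messenger RNA were called lower in the early steps. Of the 15 genes on that list 14 were tested. From E10.5 to E13.5, 5 were called lower and none higher (19.4% and 24.6% of all genes). From E13.5 to P4, 5 were called lower and 2 higher (19% and 23.8%). From P4 to P13, none was called lower and 1 higher (7.54% and 5.8%). The list summed to 5942 at E13.5, 4439 at P4 and 5141 at P56. Cstf2, a cleavage factor that acts on both polyadenylated and histone messenger RNAs, rose by 1.54 ± 0.18 from E13.5 to P4 (adjusted p = 1.1e-06), while Sympk, the scaffold of the same cleavage complex, changed by -0.47 ± 0.20. Histone chaperones, which hand histones to DNA, had 11 of 16 genes called lower and 2 higher from E13.5 to P4, against the same shares of all genes, and none called from P4 to P13.

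Replacement histones fell as well from E13.5 to P4. All 11 on the list were called lower in that step, in which 19% of all genes were, with a median of -2.55 against -3.72 for the 64 replication-dependent members. From P4 to P13 none was called lower and 1 higher (7.54% and 5.8% of all genes). From P13 to P21, 6 were called lower and none higher (5.8% and 1.5%), with a median of -1.04. The list summed to 13118 at E10.5, 11652 at E13.5, 1765 at P4, 1607 at P13, 831 at P21 and 725 at P56. H3f3b, which encodes the replacement histone H3.3, read 3058 ± 247 at E13.5 and 490 ± 97.8 at P4 (-2.49 ± 0.18, adjusted p = 4.7e-09) and 94.14 ± 13.01 at P56. H3f3a, the other gene of H3.3, fell by 2.92 ± 0.20 on the log2 scale over the same step. The members and the replacement list had sums of 46691 and 11652 at E13.5 and of 434 and 725 at P56. These counts are not scaled to length, so they do not show which set was more abundant at either age.

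Most promoters had an open chromatin peak at every age. A member was counted as having a promoter peak when the summit of an ATAC-seq peak of the library lay within 500 bp of its annotated start. In each of the 22 libraries between 64 and 66 of the 70 members (91.4% to 94.3%) had one, against 55.6% to 61.4% of 21938 protein-coding genes. The same 63 members had a peak in all 22 libraries. Hist1h1t, Hist1h2aa and Hist1h2ba had none in any library. Hist1h1d was also counted without a peak, but its RefSeq start lies 1770 bases from the annotated start used here. A peak at that start of Hist1h1d was not looked for. The other members short of 22 were Hist1h1b with 14 libraries, Hist1h2af with 20 and Hist1h3f (H3c7) with 21. Because neighbours share promoters, the members' peaks were 51 to 53 distinct peaks per library. Depth is unknown for the ATAC-seq libraries, so peaks were compared by their rank by -log10 p within a library, where a small percentage is a strong peak. The median rank of the members' peaks was 11.84% and 13.52% in the E10.5 libraries, 3.31% and 3.20% at E13.5, 4.771% and 5.499% at P4, 1.55% and 1.57% at P21 and 2.16% and 1.94% at P56. For protein-coding genes with a peak it was 12.4% and 8.67% at E10.5, 4.17% and 3.52% at P21 and 5.07% and 4.72% at P56. The number of peaks, which sets this scale, ranged from 93736 to 273452 per library, so ranks were not compared between ages. By fold enrichment the order differed: the members' median was 8.05 and 8.32 at P4, against 10.1 and 9.10 for protein-coding genes with a peak, and 10.26 and 10.46 at P56, against 10.78 and 10.36. With 2 libraries per group, no test was made. Hist2h3c2, whose transcript was at most 4.49 at P56, had its peak at rank 6.00% and 8.94% at E13.5 and 6.93% and 6.39% at P56, with fold enrichments of 9.04 and 6.03 and of 6.66 and 6.03. Hist3h2a, whose transcript read 56.4 to 75.9 at P56, had ranks of 1.26% and 1.21% at E13.5 and of 1.26% and 0.911% at P56.

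**Figure D5:**
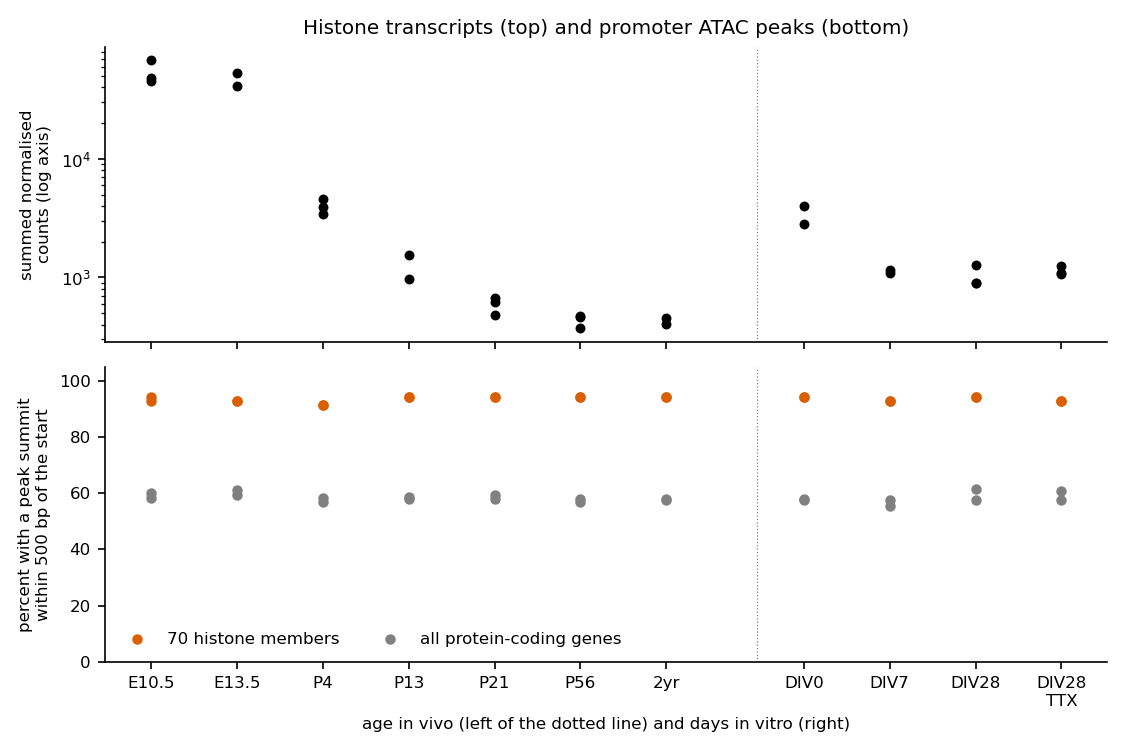
Summed normalised counts of the 70 members in 28 RNA libraries (top, log axis) and the percent of members and of 21938 protein-coding genes with a peak summit within 500 bp of the start in 22 ATAC-seq libraries (bottom), by age and days in vitro. The RNA falls 108-fold from E13.5 to P56 while the share of members with a peak stays between 91.4% and 94.3%.

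The promoters share sequence features with one another. RefSeq promoters (250 bases before and 50 after the start, GRCm38.p6) were found for 61 members and searched on both strands for the octamer ATTTGCAT, for TATAAA and for CCAAT. The octamer was present in 13 of 61 (21.3%), 7 of 17 for H2A and 6 of 16 for H2B and none for H1, H3 and H4, against 1.7% of 32789 other promoters. Windows of neighbouring genes can overlap, as those of Hist1h2ae (H2ac8) and Hist1h2bg do, so the same letters can be counted for both genes. TATAAA was present in 57.4% of the members' promoters, against 4438 of the 32789 others, and CCAAT in 85.2%, against 37.3%; all promoters of H1, H2A, H2B and H3 held CCAAT but only 3 of 12 of H4. The 250 bases before the start are given for 3 members with a promoter peak in every library: an H2B gene whose transcript fell with the rest, an H2A gene with reads left at P56, and an H4 gene. Capitals mark the 3 motifs on either strand, which do not overlap here.
Hist1h2bg (H2bc8), chr13:23571150-23571399, plus strand: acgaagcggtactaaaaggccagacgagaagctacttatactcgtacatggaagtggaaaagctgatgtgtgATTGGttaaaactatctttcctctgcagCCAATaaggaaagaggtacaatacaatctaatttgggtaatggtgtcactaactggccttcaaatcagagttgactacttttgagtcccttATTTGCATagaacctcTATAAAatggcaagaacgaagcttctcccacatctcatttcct
Hist3h2a, chr11:58954435-58954684, plus strand: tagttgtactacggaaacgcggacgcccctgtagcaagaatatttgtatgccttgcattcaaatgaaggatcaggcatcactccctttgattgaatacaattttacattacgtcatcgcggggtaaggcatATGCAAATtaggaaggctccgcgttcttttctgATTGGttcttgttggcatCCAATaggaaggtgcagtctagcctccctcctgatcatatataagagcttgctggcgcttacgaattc
Hist1h4d, chr13:23581318-23581567, plus strand: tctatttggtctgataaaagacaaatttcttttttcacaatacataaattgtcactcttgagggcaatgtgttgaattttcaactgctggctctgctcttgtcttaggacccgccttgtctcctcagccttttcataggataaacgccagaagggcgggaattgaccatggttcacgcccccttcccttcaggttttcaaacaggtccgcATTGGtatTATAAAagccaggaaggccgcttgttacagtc
Hist1h2bg read 877 and 1087 normalised counts at E13.5 and 82.8, 49.1 and 51.9 at P4 (-3.85 ± 0.29, adjusted p = 6.1e-09), and 6.95, 2.88 and 13.1 at P56. The octamer stands in the promoters of both Hist1h2bg, which was called lower from E13.5 to P4, and Hist3h2a, which was not; a match of letters is a description of the window and says nothing about which factor was bound.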

How the data were processed

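Members and gene lists were chosen with earlier results of these data known. The authors trimmed RNA reads with Trim Galore and cutadapt, aligned them to mm10 with STAR 2.5.2b and estimated with RSEM 1.3.0 the expected counts and TPM that they deposited per gene; the deposited FPKM, scaled by the authors' RSEM run to length and library size, were not used. ATAC-seq reads were aligned with BWA, and the deposited peaks were called per library with MACS2 2.2.7.1 at p 0.01, with a fold enrichment (ratio over background) and -log10 p-values and q-values per peak.

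Expected counts were rounded to whole numbers and tested with edgeR 4.0.16 (quasi-likelihood, TMM, R 4.3.3) in 3 fits: ages in vivo, cultures, and all libraries but TTX. Genes needed 5 CPM in all replicates of some group. Adjusted p-values are Benjamini-Hochberg values over all genes of the fit. The scripts were tested on simulated data. Genes named in the text were the 3 highest members of each type, members called after P4 or with TTX, the 2 called members of each type with the largest change, the Hist3 and Hist4 genes, and up to 3 genes with the highest mean of each list; others are said to have been singled out. Alternatives were DESeq2 1.42.0, other filters, thresholds and library sets, a replicate block, near-identical copies summed before the fit (chosen after seeing the data) and leaving out each replicate. DIV28 and TTX replicates of the same number were paired by the study, and their deviations from the group means correlated at 0.588, 0.507 and 0.657 over 11611 genes.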

Additional observations from a re-analysis of the deposited data

How the results depend on the processing

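Counts of members called kept within 1.5 times of the reported count in the steps from E10.5 to E13.5, from E13.5 to P4, from DIV7 to DIV28 and from E13.5 to DIV0 under all alternatives run; the smaller counts moved. With an adjusted p under 0.05 as the limit, 22 members were called from P13 to P21 and 0 in the step to P56, 6 from DIV0 to DIV7 and 16 from P21 to DIV28. With no filter the counts were 28 from P13 to P21, 2 in the step to P56, 2 in that to 2 years, 6 from DIV0 to DIV7, 1 with TTX and 18 from P21 to DIV28. DESeq2 called 13 from P13 to P21, 1 with TTX and 9 from P21 to DIV28. With only the compared libraries in the fit, the counts were 18 of 30 tested from P4 to P13 and 3 of 9 in the step to P21. They were 7 of 25 from DIV0 to DIV7 and 1 of 5 from P21 to DIV28. The main fits tested 64 members, or 25 within culture. With DIV28 replicate 3 used as DIV0, 0 were called from DIV0 to DIV7 and 1 from P21 to DIV28. Leaving out each replicate in turn gave 24 to 29, 56 to 61, 9 to 27, 5 to 12, 0 to 1 and 0 to 1 for the 6 steps in vivo, 0 to 2 from DIV0 to DIV7, 1 from DIV7 to DIV28, 0 with TTX, 49 to 55 from E13.5 to DIV0 and 1 to 5 from P21 to DIV28. By TPM the ratio of E13.5 to P56 was 227 for all members, 234 for H1, 140.2 for H2A, 247 for H2B, 645 for H3 and 397 for H4, and that of DIV0 to DIV28 was 4.61 for all members, 3.94 for H2A, 4.54 for H2B and 4.28 for H4; for all members that of E13.5 to P4 was 18.2, of E13.5 to DIV0 45.7, of DIV0 to DIV7 1.56 and of DIV28 to P21 0.888. Without the most abundant member the ratio of DIV0 to DIV28 was 7.45 for H1 and that of E13.5 to P56 was 89.8 for H4. The cause of these differences was not tested. With a replicate block, 29, 60, 29, 10, 1 and 0 members were called in the 6 steps in vivo, and 2, 1 and 0 in vitro, 56 from E13.5 to DIV0 and 5 from P21 to DIV28; the block moved no count by over 1.5 times. Over the named members, 1571 of 1707 alternative values kept their call and direction, 132 kept the direction only, and 4 reversed. With near copies summed, Hist1h2ao was -0.32 from E10.5 to E13.5, and Hist2h2aa2 was 0.64 from E10.5 to E13.5, -2.69 from E13.5 to P4 and -4.09 from E13.5 to DIV0. Reads per library and shared sequence limit the values of members with few counts after P21.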
